A study of Homo sapiens with 26 samples.

Results

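The replication-dependent histone genes were the protein-coding histone genes of the clusters on chromosomes 1 and 6, chosen by symbol (H1-, H2AC, H2BC, H3C or H4C, or an older HIST1, HIST2 or HIST3 symbol) from a GRCh37 gene annotation. They numbered 67 of 20163 protein-coding genes, 2 of which (H3-4 and H3-7) were matched by the older symbol alone. H2BC7, H2BC8 and H4C6 were not analysed here. The families were represented by 6 linker H1, 17 H2A, 16 H2B, 15 H3 and 13 H4 genes. Each gene was followed in 16 ChIP-seq peak lists through its window, the annotated body plus 2 kb on each side.

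These genes encode the bulk of the core and linker histones that package newly copied DNA, and they are switched on together as cells enter S phase. Their short, intronless transcripts end in a conserved stem-loop instead of a poly(A) tail, and that stem-loop is bound by SLBP. Transcription depends on NPAT, a substrate of cyclin E and CDK2, and in p53-proficient cells p53 activation raises p21, which inhibits CDK2. H3K27ac is a mark of active promoters and enhancers, whereas H3K4me1 is typical of enhancers and of the flanks of active promoters.

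The cells were HCT116, a colorectal cancer line with wild-type p53 (WT), and a derivative labelled HCT116_RAD21. In WT cells H3K27ac and H3K4me1 were profiled after DMSO vehicle (0 h) and after 1 h or 10 h with Nutlin-3a, which blocks the binding of MDM2 to p53. In the derivative, H3K27ac was profiled at 0 h and 1 h. According to the study, its cohesin subunit RAD21 carries a tag that allows auxin-driven degradation. The study describes these H3K27ac samples as RAD21 knockdown and states that the degrader, an auxin analogue, was given before Nutlin-3a. The labels do not name the degrader, and the peak names contain KD. The line and the loss of RAD21 cannot be told apart in a comparison with WT. Every group had 2 lists, described by the study as biological replicates, which gave 10 H3K27ac and 6 H3K4me1 lists. With 2 lists against 2, an exact permutation test cannot go below p = 0.333. A bulk peak cannot tell more cells with a mark from more mark per cell.

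The H3K27ac lists held 31640 to 49127 peaks and the H3K4me1 lists 84492 to 92943, with no read counts, so that depth could not be used. Of 10 colorectal epithelium genes fixed for a check of the cell type, EPCAM, CDH1, KRT8, KRT18 and CDX2 had an H3K27ac peak in all 10 lists, HNF4A in 7, LGR5 in 3, VIL1 and CDX1 in 1 each and KRT20 in 0. The other 5 thus lacked a peak in at least 3 lists. Of 7 genes of other cell types, PTPRC, CD3E, ALB and COL1A2 had one in 0 lists, whereas CD79A, COL1A1 and CDH5 had one in all 10. A set of 3 H3K27ac lists stood apart: in both WT 0 h lists and in WT 1 h replicate 1, the peak names lacked the word input that the other 7 carried. These 3 lists covered 30.7 to 31.9 Mb against 49.1 to 66.6 Mb, and held 3 to 4 mitochondrial peaks against 0. WT 0 h against 10 h and WT against the RAD21 line at 0 h coincide with this difference in naming, and the 2 cannot be told apart. The RAD21 line at 1 h against 0 h lies wholly within the lists named with input.

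Sequence marks of the family were read from GRCh37 first, since they show what these genes share whether or not they carried a peak. The stem-loop pattern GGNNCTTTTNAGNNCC, in which N is any base and pairing was not required, was found within 150 bases after the stop codon in 62 of 65 histone genes with an annotated coding end (95.4%), against 3 of 19816 other protein-coding genes (0.0151%). Those 3 were TIPARP and the histone genes H2AX and H4C16 outside the clusters. The 4 commonest versions are shown on the gene strand with the paired stem in capitals. The first ended 39 genes of the H1, H2A, H2B and H3 families and the second 9 genes of the same families, while the last ones were seen in H4 genes, 7 and 4 of them. H3C6, H2BC10 and H4C13 had no match within the window.
Commonest stem-loop: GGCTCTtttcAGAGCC
Second stem-loop: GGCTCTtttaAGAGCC
H4 stem-loop: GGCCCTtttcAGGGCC
Other H4 stem-loop: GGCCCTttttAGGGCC

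Promoters, taken as the 250 bases before the annotated start, carried other shared letters. CCAAT, read on both strands, was present in 57 of 65 histone promoters (87.7%) against 34.1% of 19816 other promoters. TATAAA on the gene strand was in 39 (60.0% against 6.64%), and the octamer ATTTGCAT on either strand in 24 (36.9% against 1.42%). AAACACA, the AC box of H1 promoters, was in 6 (9.23% against 3.61%) and the GC box GGGCGG in 16 (24.6% against 59.2%), both read on either strand. No motif lies within another. By family, the octamer was found in 12 of 16 H2A and 12 of 16 H2B promoters and in 0 of the H1, H3 and H4 promoters, AAACACA in all 6 H1 promoters and no other, and CCAAT in 4 of 12 H4 promoters. The median share of G or C was 42.8% against 63.2% elsewhere. A match is a string of letters, not evidence of binding.

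The 3 pairs of sequences shown here illustrate that a gene with H3K27ac in every list and one with H3K27ac in none can share many of these letters. The first pair held the same kinds of motif, whereas TATAAA was in H1-3 and not in H1-2, and in H1-4 and not in H1-5. In the first pair both sequences lie between the divergent start sites of an H2A and an H2B gene and are printed on the plus strand, H2BC12 to H2AC12 (chr6:27114635-27114884, marked) and H2AC1 to H2BC1 (chr6:25726791-25727004, unmarked). The others are H1 promoters on the minus strand, H1-2 (chr6:26056699-26056948, marked) and H1-3 (chr6:26235216-26235465, unmarked), and then H1-4 on the plus strand (chr6:26156307-26156556, marked) and H1-5 on the minus strand (chr6:27835367-27835616, unmarked). Capitals mark the CCAAT, octamer, AC box and GC box letters in either orientation, and TATAAA on the printed strand.
H2BC12 to H2AC12: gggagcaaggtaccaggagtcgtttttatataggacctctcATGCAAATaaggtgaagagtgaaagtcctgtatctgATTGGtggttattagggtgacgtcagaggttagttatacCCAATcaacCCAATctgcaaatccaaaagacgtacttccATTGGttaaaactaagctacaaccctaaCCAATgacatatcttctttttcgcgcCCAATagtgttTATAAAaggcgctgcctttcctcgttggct
H2AC1 to H2BC1: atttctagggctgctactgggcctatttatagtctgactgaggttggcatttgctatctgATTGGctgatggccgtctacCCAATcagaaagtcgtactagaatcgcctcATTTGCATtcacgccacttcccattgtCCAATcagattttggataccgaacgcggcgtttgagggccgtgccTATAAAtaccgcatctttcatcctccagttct
H1-2: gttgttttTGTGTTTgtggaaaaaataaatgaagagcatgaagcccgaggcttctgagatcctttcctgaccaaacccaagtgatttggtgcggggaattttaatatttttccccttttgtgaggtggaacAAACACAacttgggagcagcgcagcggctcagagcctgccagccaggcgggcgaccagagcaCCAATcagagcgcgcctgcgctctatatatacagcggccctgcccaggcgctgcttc
H1-3: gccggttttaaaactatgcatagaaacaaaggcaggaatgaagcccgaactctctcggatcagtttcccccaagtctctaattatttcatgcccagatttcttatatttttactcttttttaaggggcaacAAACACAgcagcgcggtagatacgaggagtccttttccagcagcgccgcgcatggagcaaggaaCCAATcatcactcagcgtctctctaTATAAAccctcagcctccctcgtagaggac
H1-4: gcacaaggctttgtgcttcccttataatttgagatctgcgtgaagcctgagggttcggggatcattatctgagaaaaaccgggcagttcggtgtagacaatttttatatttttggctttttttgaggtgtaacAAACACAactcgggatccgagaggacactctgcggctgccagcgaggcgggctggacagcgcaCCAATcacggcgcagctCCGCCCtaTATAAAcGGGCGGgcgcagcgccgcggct
H1-5: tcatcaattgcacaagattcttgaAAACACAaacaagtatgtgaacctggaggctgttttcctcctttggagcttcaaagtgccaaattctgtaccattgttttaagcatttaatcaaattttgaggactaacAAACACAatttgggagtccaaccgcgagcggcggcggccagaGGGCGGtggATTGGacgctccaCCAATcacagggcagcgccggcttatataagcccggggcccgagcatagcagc

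Of the 46 promoters with H3K27ac in every list, 39 held CCAAT (84.8%), 29 TATAAA (63.0%) and 17 the octamer. Of the 15 with H3K27ac in no list, 14 held CCAAT (93.3%), 8 TATAAA (53.3%) and 6 the octamer. Repeated sequence can hinder read mapping. It was searched for only on the chromosomes that hold the histone clusters, and there it was not more common in the unmarked genes. For genes with H3K27ac in every list, a median of 5.58% of the 50-base subsequences occurred elsewhere on these chromosomes. For genes with H3K27ac in no list the median was 0.0% (highest 1.79%). Repeats on other chromosomes were not counted. H2AC18 and H2AC19, H3C14 and H3C15, and H4C14 and H4C15 consisted wholly of repeated subsequences, so that reads of these copies cannot be assigned to one of them and their values are uncertain.

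H3K27ac covered most of the family in each list, and the same genes stayed without it. An H3K27ac peak touched the window of 48 of 67 histone genes in all 10 lists (71.6%, against 65.6% of 20096 other protein-coding genes), and 15 had none in any list (22.4% against 23.1%). H3K4me1 was present in all 6 lists at 51 genes (76.1% against 80.9%) and absent from all at 12. Both marks in every list were found at 47 genes and neither in any list at 11. H3-7 had H3K27ac in all 10 lists without H3K4me1, and H2AC8 and H3C8 the reverse. The nearest H3K4me1 peak lay 1051 to 1602 bp from the start of H2AC8 and 1766 to 2127 bp from that of H3C8. The window of a gene can hold a neighbour's peak, and 17 annotated bodies exceed 1500 bp (median 510 bp, longest 37610 bp for H2BC4), so the start site was examined separately.

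**Figure D1:**
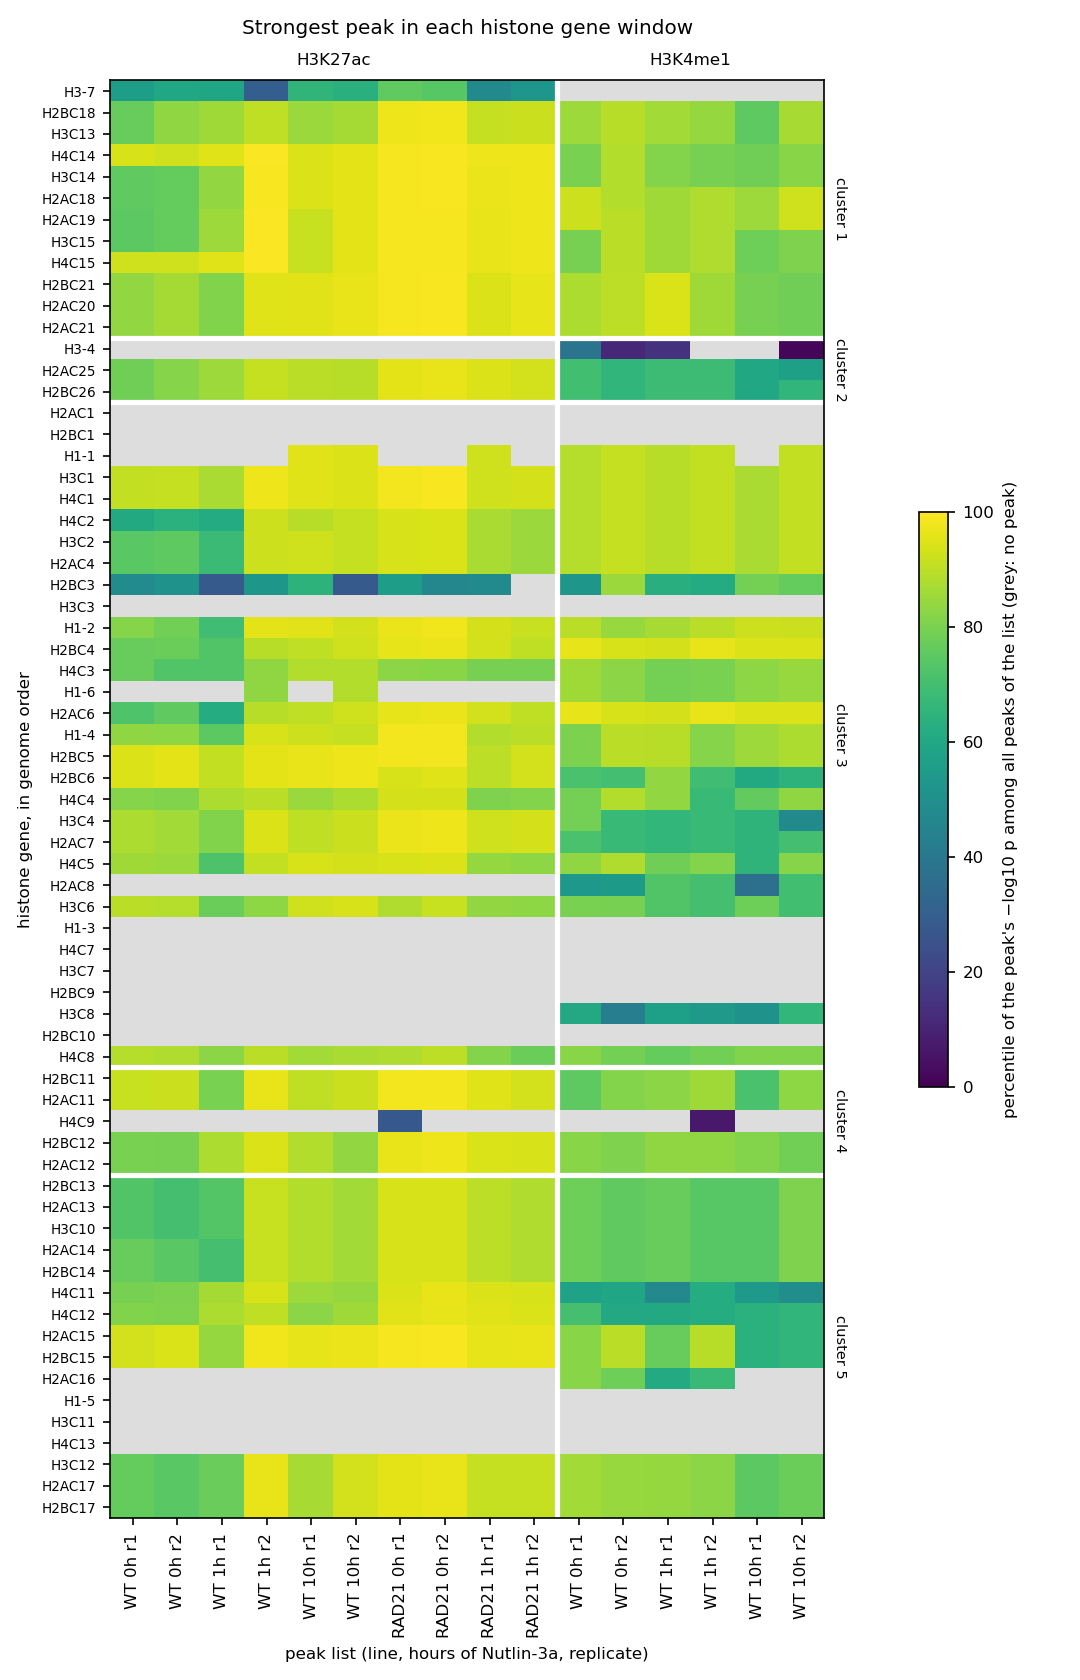
Strength of the strongest peak in the window of each of the 67 histone genes (vertical axis, genome order, clusters 1 to 5 parted by white lines) in each of the 16 lists (horizontal axis, line, hours of Nutlin-3a and replicate, with H3K27ac on the left and H3K4me1 on the right). Colour gives the percentile of the peak's −log10 p-value among all peaks of its list, from 0 to 100, and grey means no peak. The grey rows under H3K27ac form a block of 6 neighbours (H1-3 to H2BC10) and a block of 4 (H2AC16 to H4C13).

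The number of marked genes varied by cluster. In cluster 1 (chr1:149389123-149859515) all 12 genes, of the H2A, H2B, H3 and H4 families, had H3K27ac in every list. In cluster 2 (chr1:228612546-228650805) 2 of 3 did, the exception being H3-4, a testis-linked H3 gene. The largest, cluster 3 (chr6:25723625-26285866), held 31 genes, of which 18 were marked in every list and 10 in none. In cluster 4 (chr6:27093676-27115341) the counts were 4 and 0 of 5, and in cluster 5 (chr6:27775257-27861669) 12 and 4 of 16. By family, H3K27ac was present in every list at 2 of 6 H1, 14 of 17 H2A, 12 of 16 H2B, 10 of 15 H3 and 10 of 13 H4 genes.

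Of the 15 unmarked genes, 10 stood in 2 uninterrupted blocks. The first, chr6:26234440-26273640, spanned 39.2 kb and held H1-3, H4C7, H3C7, H2BC9, H3C8 and H2BC10. The nearest H3K27ac peak in any list lay 9601 to 10055 bp from the start of H1-3, at the edge of the block, and 26228 to 26682 bp from that of H2BC9 inside it. The second, chr6:27833095-27841312, spanned 8.22 kb with H2AC16, H1-5, H3C11 and H4C13, and its nearest peaks lay 2256 to 25537 bp from the start of H2AC16. The testis-linked pair H2AC1 and H2BC1 opens cluster 3, with its nearest H3K27ac peak 221709 to 235718 bp from the start of H2AC1. H3-4, H3C3 and H2AC8 stood alone. H3C3, at chr6:26045612-26046097, had its nearest H3K27ac peak 2329 to 6915 bp away and H2AC8 at 5466 to 6434 bp. Within the first block H3K4me1 was called in all 6 lists at H3C8, the percentile of its peak running from 42.8 to 66.2, and at none of the other 5 genes. The H3C8 peak lay 1766 to 2127 bp from the start, reaching into the edge of the window.

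Divergent pairs were marked or unmarked as a unit. In all, 11 pairs of histone genes faced away from each other over less than 1 kb. Both genes carried both marks in every list in 9 pairs, each an H2A gene with an H2B gene 194 to 251 bp away. Neither gene carried either mark in the other two, H2AC1 with H2BC1 (215 bp) and H3C7 with H2BC9 (979 bp). Genes so close share their windows, and hence their peaks.

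Linker H1 genes, whose products bind the DNA between nucleosomes, split into marked and unmarked members. Strength is given for each gene as the percentile of its strongest peak's −log10 p-value among all peaks of the same list. For H1-2 it was 82.0 and 78.9 in WT at 0 h, 69.5 and 96.0 at 1 h, 95.6 and 93.0 at 10 h, and 96.9, 97.8, 93.5 and 91.5 in the RAD21 line at 0 h and 1 h. The corresponding values for H1-4 were 83.4 and 83.0, 74.8 and 94.1, 92.3 and 91.4, then 98.2, 98.3, 88.5 and 89.6. For both genes the lowest value was that of WT 1 h replicate 1 and the highest those of the RAD21 line at 0 h. H1-3 and H1-5 had no H3K27ac peak in any list, nor any H3K4me1 peak.

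H1-1 and the testis-linked H1-6 were marked in some lists. At H1-1 a peak of percentile 95.2 and 94.7 was present in both WT 10 h lists and of 92.8 in 1 of the 2 RAD21 1 h lists. This was the peak of the neighbouring H3C1 and H4C1, whose edge reached the end of the H1-1 window. H1-6 had a peak in WT 1 h replicate 2 (83.3) and WT 10 h replicate 2 (88.6), again that of a neighbour, H4C3. A further 2 genes were marked in part of the lists, H2BC3 in 9 of 10 with percentiles of 28.2 to 64.5 and H4C9 in 1, RAD21 0 h replicate 1, with 27.4.

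Among marked genes the strength in untreated WT cells varied within each cluster. The highest mean over the WT 0 h lists was that of H4C14 in cluster 1 (93.3) and the lowest that of H3-7 (57.6). H2AC25 and H2BC26 of cluster 2 shared a peak at 80.1. In cluster 3 the range ran from 49.5 for H2BC3 to 95.5 for H2BC5 and H2BC6, whose long annotated bodies meet at the same peak. In cluster 4 the pair H2BC11 and H2AC11 (91.8) stood above the pair H2BC12 and H2AC12 (79.6), and in cluster 5 the pair H2AC15 and H2BC15 (93.8) above H2BC13, H2AC13 and H3C10 (71.9).

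The presence of a peak differed between groups at very few histone genes. For H3K27ac, the WT 0 h lists lacked input in their peak names, whereas the WT 10 h and RAD21 lists carried it. Comparisons of WT 0 h with those lists cannot be told apart from the difference in naming. A gene was counted as gained when both lists of the later or second group, and neither of the first, held a peak in its window, and as lost in the reverse case. In WT cells at 1 h, 0 of 67 histone genes gained and 0 lost H3K27ac, against 0.684% and 0.526% of all 20163 genes. At 10 h 1 gained it, H1-1 through its neighbours' peak, against 0.987%, and 0 lost it, against 1.20%. In the RAD21 line at 1 h 0 gained and 0 lost it, against 0.878% and 0.675%. Between the RAD21 line and WT at 0 h the counts were 0 and 0, against 1.22% and 1.07%. For H3K4me1 in WT cells the counts at 1 h were 0 gained and 0 lost, against 0.551% and 0.124%, and at 10 h 0 gained and 1 lost, against 0.253% and 0.317%. That gene was H2AC16, at percentiles 82.4 and 78.0 at 0 h, 61.3 and 67.5 at 1 h and with no peak at 10 h, through a peak at the edge of its window. Counts this close to the background are not a result about the histone genes.

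Placement of the peaks around the start site is given as shares, without a test. Over the 48 genes marked in every list, the start itself was inside an H3K27ac peak for 24, 25 and 19 genes (50.0%, 52.1% and 39.6%) in the 3 lists named without input, and for 45 to 46 (93.8% to 95.8%) in the other 7. For the 13181 other genes marked in every list the shares were 76.4% to 81.7% and 84.2% to 87.6%. In the former lists a gap preceded the start: 70.8% to 75.0% of the histone genes were covered at −500 bases, 37.5% to 41.7% at −100 and 85.4% to 87.5% at 200. Other genes passed from 50.6% to 50.8% through 63.2% to 71.3% to 83.2% to 84.7% at the same positions, without a dip. The lists named with input showed no gap at the histone genes, with 93.8% to 95.8% at all 3 positions.

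**Figure D2:**
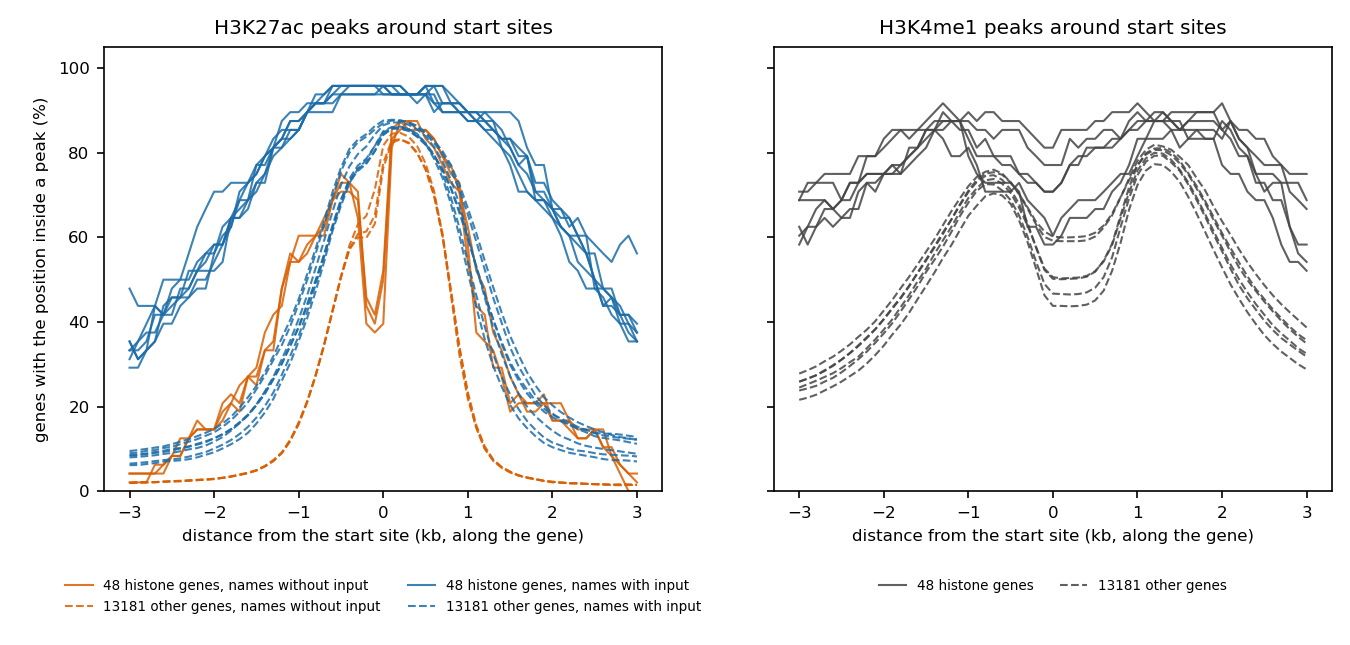
Share of genes (vertical axis, %) whose position at a given distance from the start site (horizontal axis, kb, upstream negative) lay inside a peak, for H3K27ac on the left and H3K4me1 on the right, with 1 line per list. Solid lines are the 48 histone genes and dashed lines the 13181 other genes with H3K27ac in every list, orange for the 3 lists named without input and blue for the 7 named with it. The solid orange lines fall to 37.5% to 41.7% just before the start, whereas the solid blue lines are at 93.8% to 95.8% there.

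Peaks over histone starts were also wider than those over other starts and reached farther upstream. The median width of the peak nearest the start was 1439 to 1724 bp in the lists named without input and 3733 to 4841 bp in the others, against 1309 to 1353 bp and 1917 to 2358 bp at other genes. At −1000 bases 54.2% to 60.4% of the histone genes were covered in the former lists, against 15.8% to 16.3% of other genes, and 85.4% to 89.6% against 35.5% to 45.4% in the latter. The summit of that strongest peak lay downstream of the start at 44.7% to 51.1% of the histone genes and at 69.0% to 73.9% of the others. Neighbouring histone genes share peaks, 26 to 29 distinct peaks standing for 47 genes in a list, so these shares rest on fewer independent regions. In the marked divergent pairs the starts lay 194 to 251 bp apart, so the position at −1000 bases lies past the partner's start. A summit shared by such a pair cannot lie downstream of both starts. The part of this arrangement in the upstream reach, the widths and the summit shares was not tested. H3K4me1 covered the start of 28 to 39 of the 48 histone genes (58.3% to 81.2%), against 43.8% to 60.2% of other genes.

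For the comparison of strength, peaks of all lists of a mark that overlapped were merged, and the 18757 H3K27ac regions present in all 10 lists were ranked within each list by −log10 p-value. Of these, 28 touched a histone gene window, among them the strongest regions in the windows of FCGR1A and HFE, which are not histone genes. The percentile was turned into a normal score, in which a difference of 1 equals 1 SD of all regions, and tested with limma over all 10 lists with Benjamini-Hochberg adjustment over 18757 regions. Since ranks are relative, a higher score says that a region gained on other regions, not that its signal rose in absolute terms. The median percentile of the 28 regions was 67.2 and 68.3 in WT at 0 h, 70.0 and 87.2 at 1 h and 75.4 and 79.5 at 10 h. In the RAD21 line it was 91.5 and 93.1 at 0 h and 84.8 and 84.5 at 1 h. The 3 lists named without input were the lowest, and the 2 replicates of WT 1 h, of which only the first lacked input, were the farthest apart of any group.

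**Figure D3:**
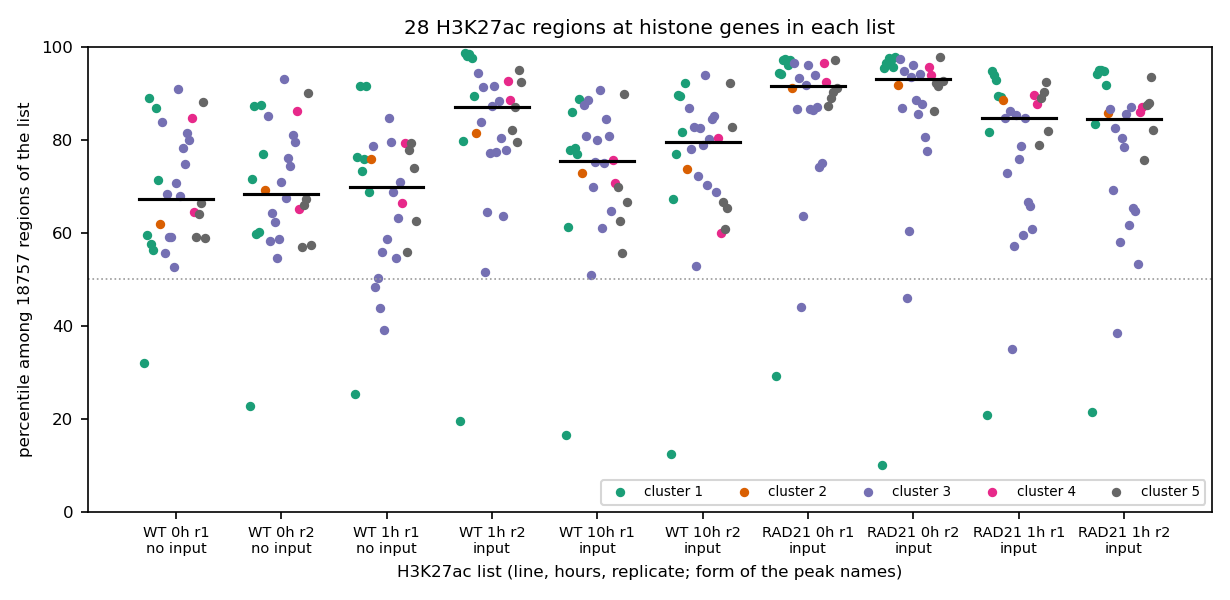
Percentile of each of the 28 H3K27ac regions at histone genes (vertical axis, 0 to 100, among 18757 regions) in each of the 10 lists (horizontal axis, with line, hours, replicate and the form of the peak names). Points are regions coloured by cluster, black bars are medians and the dotted line is the median of all regions. The medians of the 3 lists named without input (67.2, 68.3 and 70.0) lie below those of the other 7 (75.4 to 93.1).

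At 1 h of Nutlin-3a in WT cells, 10 of 28 histone regions ranked higher than at 0 h and 1 lower, against 14.3% and 14.8% of all regions. The median change was 0.24 (all regions −0.01), and both 1 h lists stood above both 0 h lists at 11 regions and below them at 3, against 29.6% and 31.4%. The region of the divergent pair H2BC12 and H2AC12 (chr6:27112188-27118646) had percentiles of 64.4 and 65.1 at 0 h and 79.4 and 88.5 at 1 h. It rose by 0.63 ± 0.14 (SE; limma, adjusted p = 0.00561). The region of H4C11 passed from 64.1 and 66.1 to 77.8 and 87.0 (0.56 ± 0.13, limma, adjusted p = 0.00777). At the region of the copies H2AC19, H3C15 and H4C15, percentiles were 56.4 and 60.1, then 76.0 and 98.5 (1.23 ± 0.32, limma, adjusted p = 0.0125). The exception was H3C6, which fell from 81.5 and 81.0 to 63.1 and 63.6 (−0.55 ± 0.12, limma, adjusted p = 0.00436).

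The changes at 1 h were unevenly placed, and their number moved with the lists used. Cluster 1 held 5 of the 10 higher regions out of 7, and cluster 3 held 1 of 13. Apart from that of H2BC18 and H3C13, these cluster 1 regions hold the copies from H4C14 to H4C15. Reads of these copies cannot be told apart, so the regions are not independent and the uneven placement rests largely on them. With a term for the form of the peak names, which only the 2 WT 1 h lists could set, since no other group held both forms, 6 regions were higher and 9 lower and the median became −0.11. Without WT 1 h replicate 2 the counts were likewise 6 and 9. They were 20 and 1 without WT 1 h replicate 1, 0 and 1 without WT 0 h replicate 1, and 3 and 1 without WT 0 h replicate 2. Leaving out any other list gave 6 or 7 higher regions and 1 lower. In the 3 lists named without input alone, 1 list at 1 h stood against 2 at 0 h, so that the differences are given without a test: 0.40 for H2BC12 with H2AC12, 0.34 for H4C11, −0.50 for H3C6 and 0.02 for the region of H2AC19, H3C15 and H4C15. Ranking by fold in place of −log10 p-value called 0 of 28 regions in either direction, and 0 of all regions, with a median change of 0.63 at the histone regions.

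At 10 h few histone regions differed from 0 h. Of 28, 3 were higher and 1 lower, against 9.70% and 8.56% of all regions, with a median change of 0.09 (all regions −0.04). Both 10 h lists lay above both 0 h lists at 13 regions and below at 8, against 31.8% and 37.2%. The region of H2BC21, H2AC20 and H2AC21 in cluster 1 had percentiles of 71.3 and 76.9 at 0 h and 88.9 and 92.2 at 10 h (0.67 ± 0.19, limma, adjusted p = 0.0301). That of H4C14, H3C14 and H2AC18 passed from 57.7 and 59.8 to 86.1 and 89.7 (0.95 ± 0.30, limma, adjusted p = 0.0441). With the term for the form of the names both turned to −0.08 and −0.48, which did not pass (limma, adjusted p = 0.851 and 0.104). H4C3, with H2BC4 and H1-6, was higher (59.2 and 54.6, then 69.9 and 72.2), by 0.38 ± 0.12 (limma, adjusted p = 0.0394). H4C8 was lower (80.0 and 79.6, then 64.7 and 68.9), by −0.40 ± 0.12 (limma, adjusted p = 0.0357). With the naming term 0 regions were higher and 9 lower, ranking by fold gave 3 higher and 0 lower, and the counts were 11 and 4 without either one of the WT 1 h lists and 0 or 1 and 0 without any one of the other 8. All 0 h lists were named without input and all 10 h lists with it, so the 2 cannot be told apart.

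Between 1 h and 10 h in WT cells 2 histone regions ranked higher and 7 lower, against 15.8% and 16.5% of all regions, with a median of −0.12 (all regions 0.02). The 3 lower regions with the smallest p were those of H4 genes. Of these, H4C14 and H4C15 are copies whose reads cannot be told apart, so their values are uncertain and not independent. In H4C11, 59.2% of the 50-base subsequences were repeated. The region of H4C14 had percentiles of 91.7 and 98.8 at 1 h and 77.9 and 76.9 at 10 h (−1.07 ± 0.21, limma, adjusted p = 0.00226). H4C11 fell from 77.8 and 87.0 to 62.6 and 60.8 (−0.65 ± 0.13, limma, adjusted p = 0.00291), and H4C15 from 91.7 and 97.7 to 77.0 and 81.7 (−0.87 ± 0.18, limma, adjusted p = 0.00335). In contrast, H3C6 rose from 63.1 and 63.6 to 80.8 and 85.1 (0.61 ± 0.12, limma, adjusted p = 0.00185) and H4C5 from 54.5 and 80.5 to 84.6 and 84.4 (0.53 ± 0.18, limma, adjusted p = 0.0369). H3C6 thus ranked lower at 1 h than at either 0 h or 10 h. Among lists named with input alone, 1 region was higher and 15 were lower, out of 28, but WT 1 h was then a single list, assumed to vary like the other groups. Ranking by fold called 0 higher and 0 lower. The counts were 15 and 7 without WT 1 h replicate 2, 1 and 16 without WT 1 h replicate 1, 1 and 4 without WT 10 h replicate 1, 1 and 5 without WT 10 h replicate 2, and 1 and 7 without any one of the other 6.

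In the RAD21 line the histone regions moved down at 1 h of Nutlin-3a, in a comparison whose lists were all named with input. The SE and p-values, however, drew on the spread of all H3K27ac lists, including the WT 1 h pair of mixed naming. Of 28 regions, 8 ranked lower and 0 higher, against 13.4% and 14.4% of all regions. The change was negative at 27 of 28, with a median of −0.42 (all regions 0.04). Both 1 h lists lay below both 0 h lists at 25 regions and above at 0, against 33.0% and 38.4%. H4C4 had percentiles of 86.5 and 85.6 at 0 h and 59.6 and 61.7 at 1 h (−0.81 ± 0.12, limma, adjusted p = 0.000289). The region of H2BC18 and H3C13 passed from 94.3 and 95.5 to 81.8 and 83.4 (−0.70 ± 0.13, limma, adjusted p = 0.00179), and that of H1-4 and H2BC5 from 96.2 and 96.2 to 75.8 and 78.5 (−1.03 ± 0.21, limma, adjusted p = 0.00296). In each of these the groups did not overlap.

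Cluster 3 held 6 of the 8 lower regions out of 13, cluster 1 the other 2 out of 7, and clusters 2, 4 and 5 had 0 out of 8. Every region of clusters 2 to 5 had a negative change, and the single positive one was 0.11 at the weaker H2BC18 region of cluster 1. That region is also the strongest in the window of FCGR1A, a non-histone gene. The number of lower regions moved with the setting. Ranking by fold called 0 of 28, and 0 of all regions, with the change positive at 2 of 28 and a median of −0.50. The number was 20 with the naming term, 19 among the 7 lists named with input, and 20 without either one of the WT 1 h lists. It was 3 without RAD21 0 h replicate 2, 4 without either RAD21 1 h list, 6 without RAD21 0 h replicate 1 and 7 or 8 without any of the other 4. No list, when left out, gave a higher region. Peaks were also broader at 1 h in this line, where the lists covered 62.6 and 64.1 Mb against 49.1 and 53.2 Mb at 0 h. The part of this difference in the ranks was not tested.

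**Figure D4:**
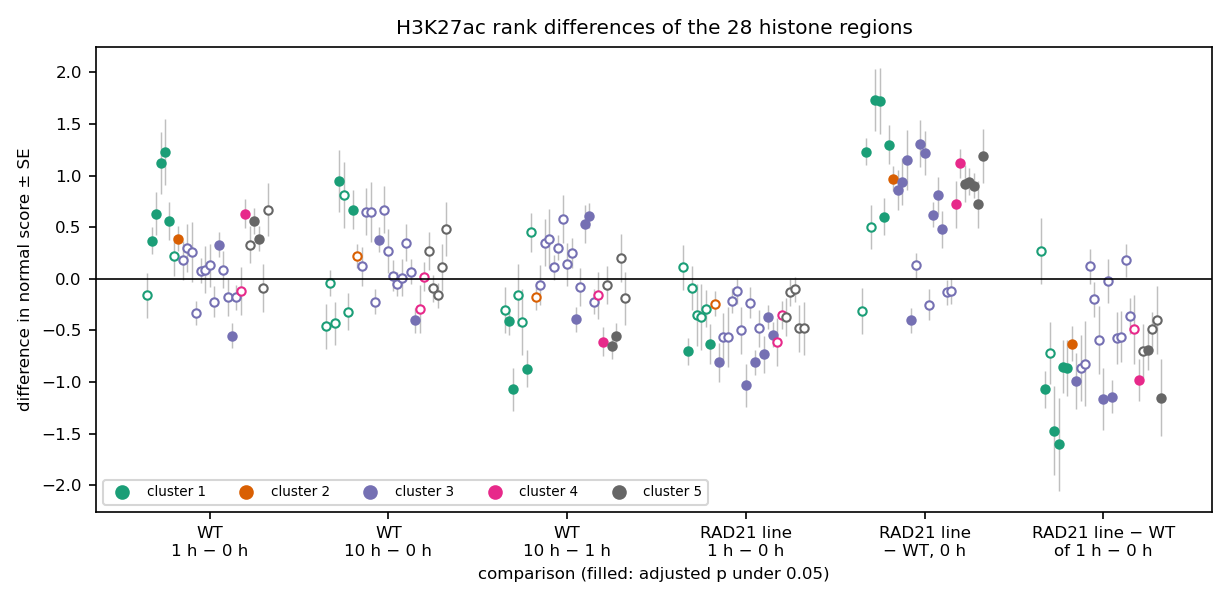
Difference in normal score (vertical axis, with bars of 1 SE) of each of the 28 H3K27ac regions at histone genes in 6 comparisons (horizontal axis). Points are regions coloured by cluster, in genome order within a comparison, and filled points have an adjusted p under 0.05. In the RAD21 line 27 of 28 points lie below 0 at 1 h, and 23 of 28 lie above 0 in the comparison of the lines at 0 h.

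Without Nutlin-3a the histone regions ranked far higher in the RAD21 line than in WT cells. Of 28 regions 21 were higher and 1 lower, against 16.8% and 20.7% of all regions, with a median difference of 0.88 (all regions −0.06). Both RAD21 lists lay above both WT lists at 23 regions and below at 4, against 32.6% and 41.2%. All regions of clusters 4 and 5, the single region of cluster 2, 5 of 7 in cluster 1 and 8 of 13 in cluster 3 were higher. The region of H2BC18 and H3C13 had percentiles of 59.5 and 71.6 in WT and 94.3 and 95.5 in the RAD21 line (1.23 ± 0.13, limma, adjusted p = 1.53e-05). That of H2AC25 and H2BC26 had 61.9 and 69.2, then 91.2 and 91.9 (0.97 ± 0.12, limma, adjusted p = 5.22e-05), and that of H2BC12 and H2AC12 had 64.4 and 65.1, then 92.5 and 94.0 (1.12 ± 0.14, limma, adjusted p = 6.62e-05). The lower region lay inside the long annotated body of H2BC4, away from its start (59.1 and 62.3, then 44.1 and 46.0), at −0.40 ± 0.12 (limma, adjusted p = 0.0201). It is also the strongest region in the window of HFE, a non-histone gene. With the naming term 7 regions were higher and 2 lower, and the median fell to 0.07. The WT and RAD21 lists at 0 h differ in naming as well as in line, and the 2 cannot be told apart.

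The change at 1 h differed between the lines at 12 of 28 histone regions, each more negative in the RAD21 line, and at 0 in the other direction, against 11.0% and 11.7% of all regions. The median difference of the changes was −0.70 (all regions 0.05). At H4C4 it was −1.14 ± 0.16 (limma, adjusted p = 0.00045), at H2BC18 with H3C13 −1.07 ± 0.18 (limma, adjusted p = 0.00145) and at H2BC12 with H2AC12 −0.98 ± 0.20 (limma, adjusted p = 0.00402). Ranking by fold called 0 of 28, and 0 of all regions, with a median of −1.16 at the histone regions. Both WT 0 h lists and WT 1 h replicate 1 lacked input in their names, so the WT change coincides in part with naming. With the naming term the count was 13. It was 23 without WT 1 h replicate 1, 13 without WT 1 h replicate 2, 10 or 11 without one of the WT 10 h lists, 3 and 4 without WT 0 h replicates 1 and 2, 6 and 4 without RAD21 0 h replicates 1 and 2, and 4 and 5 without RAD21 1 h replicates 1 and 2.

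H3K4me1 moved little at the histone genes. The 31 regions at histone genes among 60476 present in all 6 lists had median percentiles of 65.5 to 74.0. At 1 h 0 regions were higher and 1 lower (limma; 1 and 2 at an unadjusted p under 0.05), against 0.291% and 0.304% of all regions, and at 10 h 0 and 0 (0 and 4 unadjusted), against 0.615% and 0.0231%. The lower region (chr1:149758963-149761170) lay in the annotated body of H2BC18, far from its start at 149783925. Its percentiles were 78.3 and 75.4 at 0 h, 27.5 and 34.5 at 1 h and 57.9 and 60.1 at 10 h, a change at 1 h of −1.23 ± 0.20 (limma, adjusted p = 0.0158). The call was lost when any one 0 h or 1 h list was left out and held without either 10 h list. It was also lost on ranking by fold, with gene windows, and on keeping peaks whose −log10 q-value reached 5. At the H1-2 region the percentiles were 85.1, 79.2, 80.5, 85.9, 90.0 and 88.3 in the order of time and replicate.

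The genes that control histone expression were taken from a list of 21 regulators, including NPAT, SLBP, the stem-loop processing factors, NF-Y subunits, E2F1, cyclin E genes and CDK2. Of these, 20 had H3K27ac in all 10 lists and CCNE2 in 9. In the RAD21 line at 1 h, where the histone regions ranked lower, 9 of 20 regulators ranked higher and 2 lower, against the 14.4% and 13.4% of all regions. E2F1, a transcription factor of S-phase entry, rose by 1.07 ± 0.12 (limma, adjusted p = 7.78e-05) and CDK2, the partner of cyclin E, by 0.89 ± 0.11 (limma, adjusted p = 0.000144). The cleavage factor gene CSTF2 changed by −1.40 ± 0.13 (limma, adjusted p = 2.36e-05) and ZNF473, which takes part in histone mRNA processing, by −0.90 ± 0.13 (limma, adjusted p = 0.000359). Of 6 histone chaperone genes 4 were higher and 0 lower, among them NASP (0.81 ± 0.11, limma, adjusted p = 0.000207) and CHAF1A (0.97 ± 0.20, limma, adjusted p = 0.00294). Among the 7 lists named with input the counts were 13 and 2 of 20 regulators and 5 and 0 of 6 chaperones. Ranking by fold, under which 0 of all regions were called, left none of these calls.

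In WT cells at 1 h 5 of 20 regulators were higher and 2 lower, against 14.3% and 14.8% of all regions, with E2F1 at 1.16 ± 0.12 (limma, adjusted p = 0.00012). At 10 h against 0 h 0 were higher and 8 lower, against 9.70% and 8.56%. SLBP changed by −0.68 ± 0.17 (limma, adjusted p = 0.0185), E2F1 by −0.84 ± 0.12 (limma, adjusted p = 0.00124), CCNE1 by −0.69 ± 0.12 (limma, adjusted p = 0.00296) and CDK2 by −0.61 ± 0.11 (limma, adjusted p = 0.00453). The count became 3 lower with the naming term. NPAT passed the test in neither comparison (−0.12 ± 0.12 and −0.13 ± 0.12). Against 1 h, 3 regulators were higher and 10 lower at 10 h, against 15.8% and 16.5%, and 3 and 8 among lists named with input, where 1 h was a single list. In the comparison of the lines at 0 h 3 were higher and 8 lower, against 16.8% and 20.7%, and 2 and 5 with the naming term. For the 6 chaperones that comparison gave 1 each way, 1 and 0 with the naming term. Against the same shares, the chaperones numbered 2 higher and 1 lower in WT at 1 h, 0 and 2 at 10 h against 0 h and 1 and 3 at 10 h against 1 h.

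A list of 12 histone genes outside the clusters, most of them replication-independent, served as a second comparison, and all 12 had H3K27ac in every list. H2AFJ and HIST4H4 took their value from the same region, so the 12 are not independent. In the RAD21 line 1 was higher and 1 lower at 1 h, against 14.4% and 13.4% of all regions. At 0 h 8 of 12 were higher than in WT and 1 lower, against 16.8% and 20.7% (2 and 1 with the naming term), with H1FX at 1.13 ± 0.11 (limma, adjusted p = 7.47e-06) and H2AFX at 0.91 ± 0.11 (limma, adjusted p = 5.12e-05). In WT cells 3 were higher and 0 lower at 1 h (14.3% and 14.8% of all regions), 1 and 2 at 10 h against 0 h (9.70% and 8.56%) and 2 and 5 at 10 h against 1 h (15.8% and 16.5%). The change at 1 h also differed between the lines at some of the 12. It was more positive in the RAD21 line at 1 and more negative at 4, against 11.7% and 11.0% of all regions (limma). Among the 20 regulators and 6 chaperones the same counts were 5 and 1, and 1 and 0. For H3K4me1 0 genes of the regulator, chaperone and outside histone lists passed the test at 1 h or 10 h (limma). Of 10 other named protein-coding genes lying between the first and last histone gene of a cluster, 3 had H3K27ac in all 10 lists, 1 in a single list and 6 in 0.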

How the data were processed

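Peak lists of 16 ChIP-seq libraries were used, grouped by the labels. According to the study, the authors trimmed paired-end reads (Trim Galore 0.6.6), mapped them to GRCh37.p13 (Bowtie2 2.3.2), removed low-quality, duplicate and blacklisted reads, and called narrow (H3K27ac) or broad (H3K4me1) peaks against an input with MACS2 2.2.7.1. For each peak the deposited lists give the fold enrichment ratio, p-value and q-value (both as −log10), a display score and, for narrow peaks, the summit position (other). Folds and p-values depend on the depth and input of their own library, so they were ranked within a list and not compared as such. The lists hold no counts, so depth was unknown and no count model was run. The 10 inputs were not analysed here. One 0 h list of the RAD21 line has peak names that carry BR2_BR3, so whether it holds more than 1 library is not known.

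Genes were taken from GENCODE lifted to GRCh37, on which all peak ends of 24 chromosomes fitted. Scores of regions present in every list were fitted by group with limma 3.58.1 (R 4.3.3) in 1 model per mark, with Benjamini-Hochberg adjustment over all regions and a threshold of 0.05. Python 3.11.15, numpy 2.4.6, pandas 2.3.3 and scipy 1.17.1 were used. On simulated data for WT at 1 h, of 200 regions changed by 0.5, 1 or 2 score units, 0, 136 and 182 were recovered for H3K27ac, and 0, 0 and 84 for H3K4me1. For H3K27ac the 200 were a far smaller share of 18757 regions than the 14.3% and 14.8% called in the real comparison. This made the adjusted threshold stricter in the simulation, so its counts do not give the recovery in the real fit. That fit called a change of 0.33 at H4C4. Members, lists and tests were chosen with earlier results of these data known. Named were all H1 and testis-linked genes, the extremes of each cluster at 0 h, up to 3 regions per direction and comparison with the smallest p, genes without H3K27ac, genes gained or lost, and up to 4 examples per list. Alternatives were ranking by fold, gene windows, other flanks, a −log10 q-value of at least 5, a replicate block, a term for the form of the peak names, leaving out each list and, added after seeing the data, lists of 1 form only.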

Additional observations from a re-analysis of the deposited data

Results flagged for a closer look

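The change in H3K27ac rank at 1 h of Nutlin-3a differed between the RAD21 line and WT cells at 12 of the 28 histone regions, by a test of the difference itself (limma over all 10 lists, adjusted over all regions, under 0.05). On the normal score scale the RAD21 line's change less the WT change was −1.14 at H4C4, −1.07 at H2BC18 with H3C13, −0.98 at H2BC12 with H2AC12, −1.16 at H1-4 with H2BC5, −0.63 at H2AC25 with H2BC26 and −0.69 at H4C11. It was −0.99 at the region of H1-1, H3C1 and H4C1, −1.60 at that of H2AC19, H3C15 and H4C15, −1.47 at that of H4C14, H3C14 and H2AC18, −0.85 at H4C15, −1.15 at that of H3C12, H2AC17 and H2BC17 and −0.86 at that of H2BC21, H2AC20 and H2AC21. The WT 1 h lists differed from each other in the form of their peak names, and both WT 0 h lists lacked input. The WT change thus coincides in part with naming, whereas the RAD21 change does not. With a term for that form, which only the WT 1 h lists could set, 13 regions passed. Leaving out 1 list left 3 to 23, and ranking by fold left 0. Regions of H2AC18, H2AC19, H3C14, H3C15, H4C14 and H4C15 hold copies with identical sequence, so their values are uncertain.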

How the results depend on the processing

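Counts of histone regions are given as higher and lower. With a term for the form of the peak names they were 6 and 9 at WT 1 h, 0 and 9 at 10 h against 0 h, 1 and 16 at 10 h against 1 h, 0 and 20 for the RAD21 line at 1 h, and 7 and 2 for the lines at 0 h. Regions of H2BC21, H2AC20 and H2AC21 and of H4C14, H3C14 and H2AC18 reversed at 10 h against 0 h, to −0.08 and −0.48. Ranking by fold in place of −log10 p left 0 and 0 at WT 1 h and at 10 h against 1 h, 0 lower at 10 h against 0 h, and 0 lower for the RAD21 line at 1 h, for the difference between the lines in the change at 1 h, and for H3K4me1 at 1 h. Its share of all regions called was also low, 0% at WT 1 h. With gene windows in place of regions, the counts were 1 and 0 of 48 genes at 10 h against 0 h, 14 lower for the RAD21 line at 1 h, 41 and 0 comparing lines, 24 lower for the difference of the changes, and 0 lower for H3K4me1 at 1 h. H2BC4 reversed there to 1.39 between the lines, through a stronger peak elsewhere in its window. Keeping H3K4me1 peaks with a −log10 q of at least 5 left 0 lower at 1 h. Among the lists named with input, the counts were 1 and 15 at 10 h against 1 h, where WT 1 h was a single list assumed to vary like the other groups, and the RAD21 line had 19 lower at 1 h. Among those named without input, they were 8 and 11 of 42 regions at WT 1 h, with 1 list against 2 and 1 residual degree of freedom, so that no call is supported by them.

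For peak presence a flank of 0 kb gave 2 genes gained at WT 10 h and 2 between the lines, 1 lost for H3K4me1 at 1 h, and for H3K4me1 at 10 h 2 gained with 0 lost. A flank of 5 kb gave 1 gained with 2 lost at WT 1 h, 2 lost at 10 h, 1 gained and 2 lost between the lines, and 1 gained and 0 lost for H3K4me1 at 10 h.

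Leaving out each list in turn, the counts ranged from 0 to 20 higher and 1 to 9 lower at WT 1 h, 0 to 11 and 0 to 4 at 10 h against 0 h, 1 to 15 and 4 to 16 at 10 h against 1 h, 0 and 3 to 20 at 1 h of the RAD21 line, 16 to 22 and 0 to 1 between lines, 0 and 3 to 23 for the difference of the changes, and 0 and 0 to 1 for H3K4me1 at 1 h, with 0 and 0 at 10 h. Gained genes ranged from 0 to 1 at WT 1 h, 1 to 2 at 10 h, 0 to 1 between the lines, and 0 to 1 gained and lost at 1 h both for the RAD21 line and for H3K4me1, with 1 to 3 lost for H3K4me1 at 10 h. Genes with H3K27ac in every list numbered 48 to 49 and with H3K4me1 51 to 52, and those with H3K4me1 over the start at 0 h 29 to 35. The cause of these shifts was not tested.

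The replicate numbers did not pair the lists: differences between replicates correlated by −0.05 to 0.05 over 10 pairs of H3K27ac groups and by 0.0 to 0.01 over 3 pairs of H3K4me1 groups. A fit with the replicate number as a block gave 10 and 1 at WT 1 h, 4 and 1 at 10 h against 0 h, 3 and 7 at 10 h against 1 h, 0 and 9 at 1 h of the RAD21 line, 21 and 1 between lines, 0 and 12 for the difference of the changes, and 0 and 1 at 1 h and 0 and 0 at 10 h for H3K4me1.

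Presence in a list depends on the depth of its library, which was unknown, and absence of a peak is not absence of the mark. Ranks cannot show a shift of all regions together.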
